A study of Drosophila melanogaster with 14 samples.

Results

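Copper and iron handling was read at 10 genes of the adult *Drosophila* midgut, chosen by name from 17791 genes that had at least 1 GATC fragment in the deposited tracks. They are the metallothionein genes *MtnA*, *MtnB*, *MtnC* and *MtnD*, the copper importer genes *Ctr1A* and *Ctr1B*, the copper pump gene *ATP7*, the ferritin subunit genes *Fer1HCH* and *Fer2LCH*, and the divalent metal transporter gene *Mvl*. All 10 were found in the Release 6 gene table. Their occupancy by Pol II was profiled with a Dam-Pol II fusion expressed from the esg driver, which is active in intestinal stem cells and enteroblasts (ISC/EBs), or from the myo driver, which is active in absorptive enterocytes (ECs). For each driver there were 2 Dam-Pol II samples and 2 samples of Dam alone. In a further experiment ISC/EBs expressed a fusion of Dam and the transcription factor Sox21a, with 3 samples and 3 matching Dam samples. All samples were dissected adult midguts. The esg driver does not tell stem cells from enteroblasts, and each track pools every cell of its driver along the midgut, so a moderate level in many cells and a high level in a few cannot be told apart.

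Copper and iron are needed by respiratory and antioxidant enzymes and are toxic when free. Copper enters cells through Ctr1 importers, is passed to chaperones, is moved by the ATP7 pump into the secretory pathway or out of the cell, and in excess is bound by metallothioneins, small proteins rich in cysteine. In flies the transcription factor MTF-1 induces the metallothionein genes when metal is in excess, and it also induces *Ctr1B* when copper is scarce. Iron is taken up by the transporter encoded by *Mvl* and stored in ferritin, which in insects is built from a heavy chain with ferroxidase activity (*Fer1HCH*) and a light chain (*Fer2LCH*). The midgut is where dietary metals are absorbed, and it has a region of copper cells and a region of iron cells.

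Targeted DamID marks GATC sites near the DNA that the Dam fusion contacts, so a value belongs to the fragment between 2 GATC sites. The authors deposited 1 track per experiment, the log2 ratio of the fusion to Dam alone averaged over samples. A value of 0 is the level of Dam alone. A gene's occupancy is its length-weighted mean, in which each fragment counts by the number of its bases that lie within the gene, so that genes of different length can be compared. A gene is counted below when its mean reached 1, or when the means in ISC/EBs and ECs differed by 1 (log2). With 1 averaged track per population there is no spread between samples, no difference has a replicate check and no p-value is given. The sequencing depth is unknown. The ranges given below are over the fragments of 1 gene, which are neighbors and not replicates. The share of all fragments that were higher in ISC/EBs, or in ECs, was not computed. The tracks were checked at the 6 ISC/EB markers, which had medians of 2.59 (ISC/EBs) and -0.15 (ECs), and at the 7 EC markers, with medians of -0.01 (ISC/EBs) and 2.11 (ECs). Of the 7 EC markers, 2 also reached 1 in ISC/EBs. *Myo31DF* had about the same occupancy in both populations, 1.47 in ISC/EBs and 1.29 in ECs, and *Myo61F* had 1.70 and 2.11. Visceral muscle, enteroendocrine and fat body markers stayed under 1 in both tracks (17 genes in all, the highest value being 0.58), whereas 2 of 5 hemocyte markers reached 1 in ISC/EBs and 1 of 5 in ECs. These were *crq* (2.58 in ISC/EBs, 1.25 in ECs) and *srp* (1.01 in ISC/EBs, 0.79 in ECs), and the others, *Hml*, *NimC1* and *eater*, were below 0 in both. Of the copper cell markers, *Ptx1* had 1.38 in ISC/EBs against 0.87 in ECs, *lab* 0.44 against 0.08, and *ct* was at -0.06 in both. The part of other cell types in the values below was not tested.

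By their length-weighted means, most of the 10 genes were occupied by Pol II. In ISC/EBs 7 of 10 genes had a mean of at least 1, against 29.4% of all genes. In ECs 6 of 10 did, against 18.9% of all genes, and 5 genes reached this level in both populations (15.1% of all genes). All genes here and below include noncoding ones, such as long noncoding RNA and microRNA genes, whereas the 10 encode proteins. Shares of protein-coding genes alone were not computed. The median of the 10 genes was 1.36 in ISC/EBs and 1.66 in ECs. For all genes it was 0.30 (ISC/EBs) and 0.01 (ECs). The ferritin genes, *MtnA* and *MtnD* were occupied in both populations, with ISC/EB means between 2.29 and 2.97. *MtnC* and *Ctr1B* had their higher values in ECs, and *MtnB* and *Mvl* were near the level of Dam alone in both. *Ctr1A* and *ATP7* were intermediate, at 1.16 and 1.24 in ISC/EBs and at 0.94 and 0.65 in ECs.

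**Figure D1:**
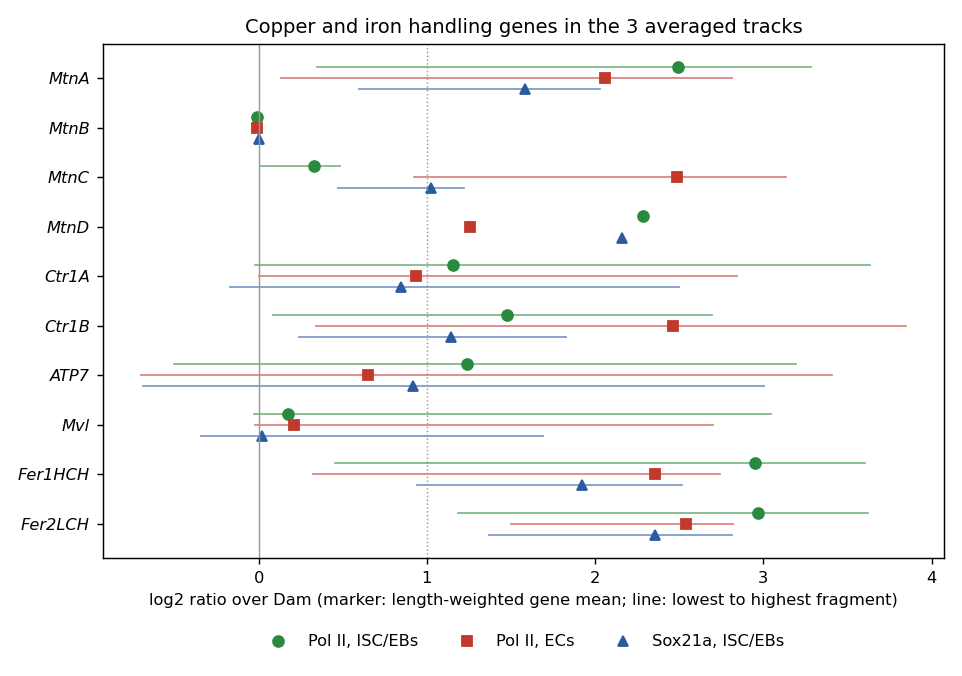
Pol II in ISC/EBs, Pol II in ECs and Sox21a in ISC/EBs at each of the 10 genes, as log2 ratio over Dam on the x axis. Markers are length-weighted gene means in the averaged tracks and lines run from the lowest to the highest fragment of the gene, not over samples. The ISC/EB means of the ferritin genes are the farthest to the right, *MtnB* lies at 0 in all 3, and *MtnC* has an EC mean of 2.49 beside an ISC/EB mean of 0.33.

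The difference between the populations, ISC/EB minus EC, was above 0 in 7 of 10 genes, against 65.3% of all genes. One gene, *MtnD*, was higher in ISC/EBs by at least 1 (9.87% of all genes), and another, *MtnC*, was higher in ECs by at least 1 (2.67% of all genes). *Ctr1B* came just short of this limit, at -0.99. The median difference was 0.32 for the 10 genes and 0.15 for all genes. The ISC/EB track has the wider spread (SD over fragments 0.856, against 0.652 in ECs). When both Pol II tracks were quantile normalized, the median of all genes moved to -0.01 and the differences of *MtnA* (-0.17), *Ctr1A* (-0.24), *Fer1HCH* (-0.04) and *Fer2LCH* (-0.22) changed sign, and they did so too with both tracks scaled to one SD, so no direction is given for these genes. After quantile normalization none of the 10 genes was higher in ISC/EBs by 1 and 2, *MtnC* and *Ctr1B*, were higher in ECs, against 3.61% and 4.83% of all genes. *MtnC*, *Ctr1B* and *ATP7* kept their direction in every setting, as did *Mvl*, at differences between -0.28 and -0.01. *MtnD* stayed above 0 in every setting that gave it a value. It has a single fragment, shared with another gene, so its weighted, unweighted and median differences are the same number by construction. *MtnB*, counted as above 0 at 0.0003, was at -0.01 after quantile normalization.

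**Figure D2:**
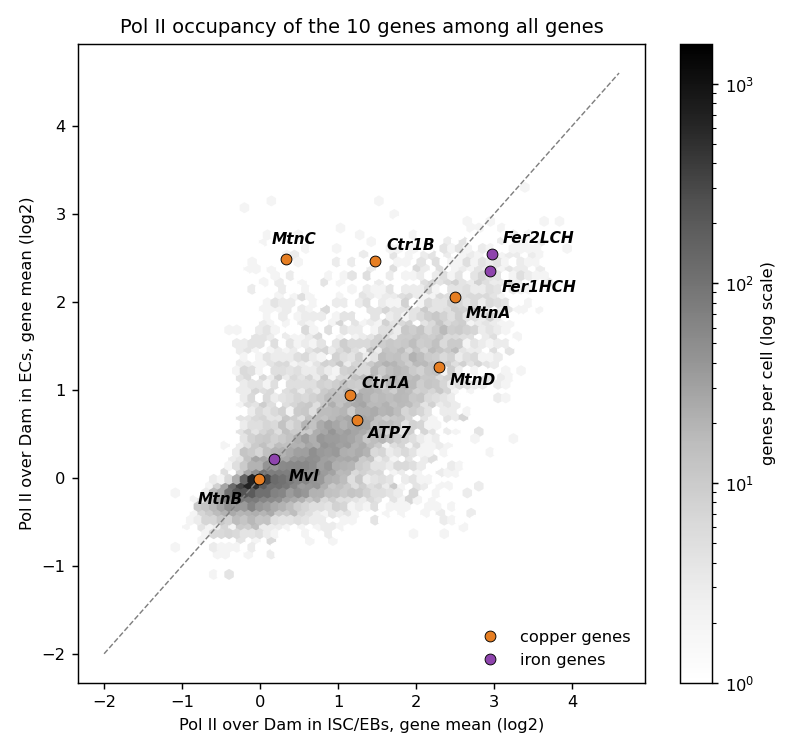
Mean Pol II occupancy (log2 over Dam) in ISC/EBs on the x axis and in ECs on the y axis, with all 17791 genes as gray cells shaded by the number of genes on a log scale and the 10 genes as points. The dashed line marks equal values. *MtnC* and *Ctr1B* lie above the line, and the ferritin genes and *MtnA* lie along the upper part of the main cloud.

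Among the metallothionein genes, *MtnC* had the clearest difference between the populations. *MtnC* lies on chromosome 3R from 20360308 to 20360634 (Release 6), is 327 bp long and is covered by 4 fragments. From the lower to the higher coordinate, these had values of 0.35, 0.49, 0.33 and 0.01 in ISC/EBs, and 0.93, 2.37, 2.97 and 3.13 in ECs. The gene means were 0.33 (ISC/EBs) and 2.49 (ECs). The difference of -2.16 corresponds to an EC ratio over Dam 4.47 times that in ISC/EBs, and only 0.427% of genes had a lower difference. The EC signal was not limited to the short gene body. The last of its fragments is 962 bp long with its greater part outside the gene, and the next 2 had 2.13 and 1.62 in ECs, against 0.11 and 0.29 in ISC/EBs. No other gene of the table lies within 3 kb on that side. On the other side, the first fragment is shared with the noncoding gene lncRNA:CR45023, which had 0.62 in ISC/EBs and 0.08 in ECs. Without that fragment the difference was -2.34. With the gene extended by 500 bp on both sides it was -1.55, the smallest in any setting.

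*MtnA* was occupied in both populations. It lies on 3R from 9783407 to 9784370 and has 6 fragments. Its mean was 2.49 in ISC/EBs, above 95.3% of genes, and 2.06 in ECs, above 96.0% of genes. Along the gene the fragments had 3.27, 3.29, 2.42, 2.42, 2.08 and 0.34 in ISC/EBs and 2.81, 2.56, 1.93, 1.96, 1.64 and 0.13 in ECs. Each fragment was higher in ISC/EBs than in ECs on the deposited scale, and the last, which is shared with *CG8500*, was low in both. The same profile was therefore seen in each population, and the difference of 0.44 turned to -0.17 after quantile normalization. The signal was not limited to the gene. On the lower-coordinate side the next fragment, outside *MtnA*, had 2.81 in ISC/EBs and 2.03 in ECs. Part of that fragment lies in *CG12947* and asRNA:CR31514.

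*MtnD*, on 3R from 20534962 to 20535301, lies inside a single fragment of 1013 bp that also holds the end of *Stat92E*, which encodes the transcription factor of the JAK/STAT pathway. That fragment had 2.29 in ISC/EBs and 1.26 in ECs, a difference of 1.03. *Stat92E* itself had a mean of 2.48 in ISC/EBs and 1.51 in ECs over 58 fragments, a difference of 0.97, so Pol II on *MtnD* and on *Stat92E* cannot be told apart here. On the other side of *MtnD* lies *MtnE*, a further metallothionein gene that is not one of the 10. *MtnE* has 2 fragments, with a mean of 1.94 in ISC/EBs and 2.0 in ECs. The count of 1 gene higher in ISC/EBs rests on this single shared fragment, and the difference was 0.37 after quantile normalization and 0.77 with the gene extended by 500 bp.

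*MtnB* was at the level of Dam alone, with -0.01 in ISC/EBs and -0.01 in ECs. It lies on 3R from 20503102 to 20503746, inside a single fragment of 2373 bp. Fragments of this length rarely had a signal anywhere. Of the 5314 fragments longer than 2 kb, 2.18% reached 1 in ISC/EBs and 0.677% in ECs, compared with 19.7% and 12.7% of fragments of 500 to 1000 bp. The fragments on both sides of it, out to 2.6 kb from its lower-coordinate end on the far side, were also between -0.31 and 0.06 in ISC/EBs and between -0.16 and 0.05 in ECs.

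**Figure D3:**
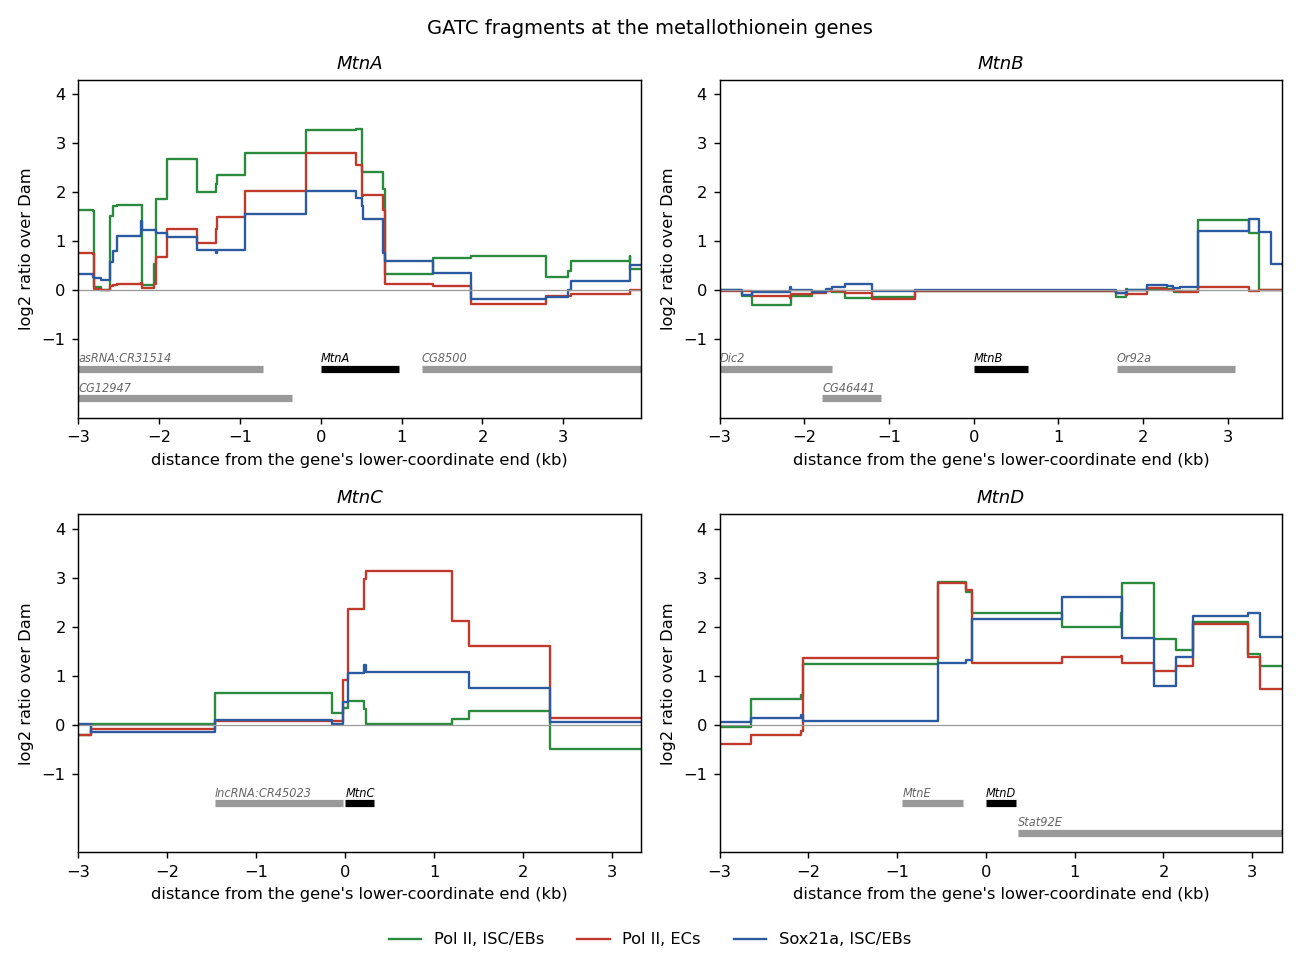
GATC fragments within 3 kb of the 4 metallothionein genes, with the distance from the gene's lower-coordinate end (kb) on the x axis and the log2 ratio over Dam on the y axis. Each horizontal step is a fragment, black bars are genes of the set and gray bars are other genes. At *MtnC* the EC line stands at up to 3.13 where the ISC/EB line is at most 0.49, and at *MtnA* both lines have the same outline.

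Of the 2 copper importer genes, *Ctr1B* had more Pol II in ECs in every setting, and *Ctr1A* had no stable direction. *Ctr1B*, on 3R from 8317612 to 8319205, had a mean of 1.48 in ISC/EBs and 2.46 in ECs over 10 fragments. The fragments ran from 0.09 to 2.69 with a median of 1.23 in ISC/EBs, and from 0.34 to 3.85 with a median of 2.07 in ECs. These ranges overlap, but fragment by fragment 9 of 10 were higher in ECs. The longest fragment wholly inside the gene (468 bp) had 2.43 in ISC/EBs and 3.85 in ECs. The exception was the first fragment, at 2.69 in ISC/EBs and 2.41 in ECs, which extends out of the gene. The first 4 fragments are shared with the noncoding gene lncRNA:CR45215, which overlaps *Ctr1B* by 395 bp, and the last with *Poxm*. Without shared fragments the mean was 0.85 in ISC/EBs and 1.63 in ECs. The difference of -0.99 ranged from -1.55 to -0.70 over the settings.

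*Ctr1A*, which encodes the other importer, had a mean of 1.16 in ISC/EBs and 0.94 in ECs over 28 fragments. It lies on chromosome X from 6661647 to 6668258. Fragments ran from -0.02 to 3.63 with a median of 0.39 in ISC/EBs, and from 0.00 to 2.85 with a median of 0.27 in ECs. The signal was gathered toward the lower-coordinate end. The second fragment had the highest value of the gene in both populations, 3.63 in ISC/EBs and 2.85 in ECs, and in the higher-coordinate part of the gene most fragments were under 0.6 in both. In that part a fragment of 303 bp, with a fragment of 5 bp beside it, stood out in ECs, at 0.36 in ISC/EBs and 1.38 in ECs. The first fragment is shared with *CG3224*. Because the mean combines a high end and a low remainder, the median over fragments lay under 1 in both populations.

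*ATP7*, on chromosome X from 11855022 to 11864754, had a mean of 1.24 in ISC/EBs and 0.65 in ECs. Of its 39 fragments, 34 were higher in ISC/EBs, and 17 reached 1 in ISC/EBs but 6 in ECs. Over the genome too, more fragments reached 1 in ISC/EBs than in ECs in every length class. For fragments of 200 to 500 bp the shares were 19.3% and 13.6%. The highest values were in the middle of the gene in both populations, 3.20 in ISC/EBs and 3.41 in ECs. The fragment with the EC maximum had 3.05 in ISC/EBs, so the excess in ISC/EBs lay in the fragments around this maximum and not at it. For example, a fragment of 1128 bp toward the lower-coordinate end had 1.56 in ISC/EBs and 0.41 in ECs. Toward the higher-coordinate end both tracks were near or below 0, with lowest values of -0.51 in ISC/EBs and -0.70 in ECs. The difference of 0.59 ranged from 0.17 to 0.61 over the settings.

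The ferritin genes had the highest length-weighted ISC/EB means of the 10 genes, but this order depended on the setting. As unweighted means, *Fer1HCH* (2.24) lay below *MtnA* (2.30), and without shared fragments *MtnA* (2.95) lay above *Fer1HCH* (2.74) and *Fer2LCH* (2.84). *Fer1HCH*, on 3R from 30385573 to 30388178, and *Fer2LCH*, from 30387804 to 30390584, are neighbors that overlap by 375 bp and share 1 fragment, so their values are not independent. *Fer1HCH* had a mean of 2.95 in ISC/EBs and 2.35 in ECs over 10 fragments. *Fer2LCH* had 2.97 in ISC/EBs and 2.54 in ECs over 7 fragments. Each of these means was above at least 97.9% of genes in its track. The means of the 2 genes in ISC/EBs were 0.02 apart, with no spread between samples to set this against.

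Pol II was not even along *Fer1HCH*. The shared fragment had 3.61 in ISC/EBs and 2.68 in ECs, whereas 3 short fragments of 138, 6 and 57 bp near the other end of the gene had 0.45, 0.53 and 0.53 in ISC/EBs and 0.40, 0.32 and 0.32 in ECs. The low stretch was thus present in both populations, between fragments of at least 2.42 in ISC/EBs and 1.70 in ECs. These 3 fragments carry little length, and the unweighted mean was lower, at 2.24 in ISC/EBs and 1.77 in ECs. In *Fer2LCH* the fragments ran from 1.18 to 3.62 in ISC/EBs and from 1.5 to 2.82 in ECs. Its 4 fragments at the *Fer1HCH* end were higher in ISC/EBs, and its other 3 were higher in ECs.

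*Mvl* had a mean of 0.18 in ISC/EBs and 0.21 in ECs over 16 fragments. It lies on 3R from 21051383 to 21060800. The median fragment was 0.04 in ISC/EBs and 0.18 in ECs. At 2 places there was signal. The last fragment at the higher-coordinate end had 3.05 in ISC/EBs and 2.70 in ECs, but only 16 bp of it lie inside the gene. Within the gene, a fragment of 321 bp had 0.82 in ISC/EBs, against 1.68 in ECs. For the 2 fragments after it the values were 0.29 and 0.19 in ISC/EBs, against 0.97 and 0.71 in ECs. Fragments longer than 2 kb cover a good part of *Mvl*, and such fragments rarely had a signal, as at *MtnB*.

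**Figure D4:**
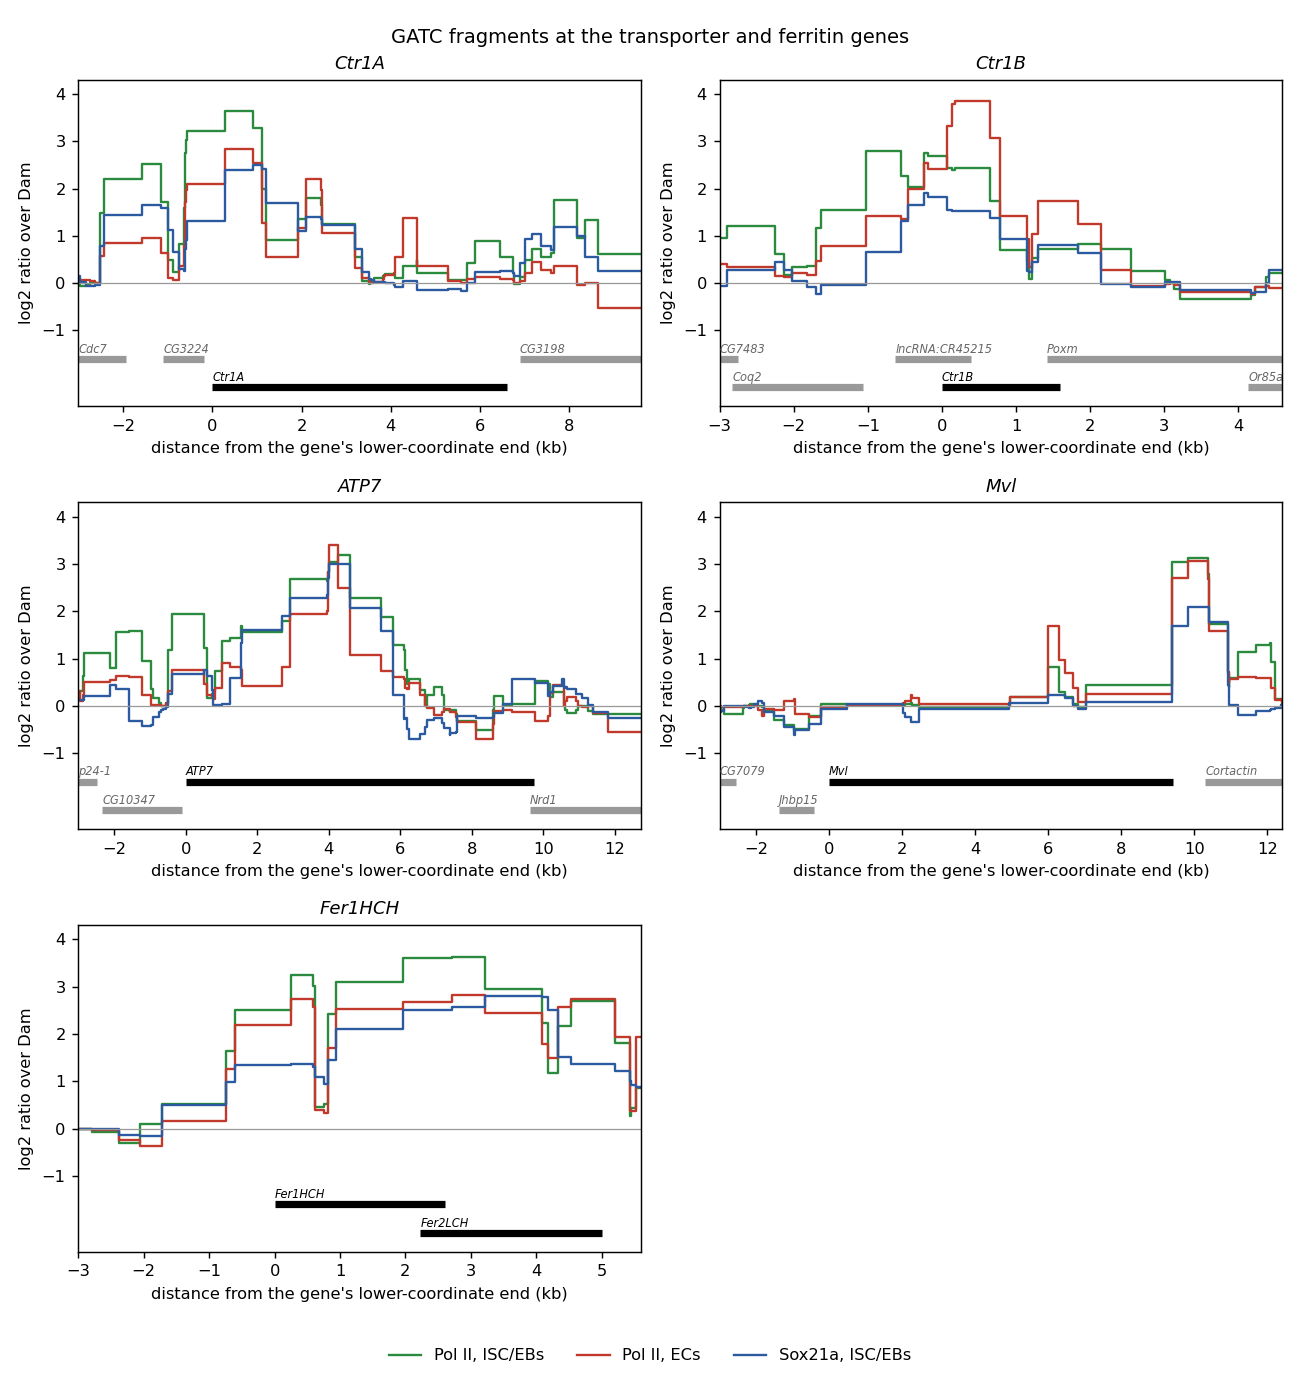
GATC fragments within 3 kb of *Ctr1A*, *Ctr1B*, *ATP7*, *Mvl* and the ferritin pair, with the distance from the gene's lower-coordinate end (kb) on the x axis and the log2 ratio over Dam on the y axis. The ferritin panel is drawn from *Fer1HCH*. The signal of *Ctr1A* lies at its lower-coordinate end and that of *ATP7* in its middle, and at *Ctr1B* the EC line reaches 3.85 where the ISC/EB line is at 2.43.

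The order of the genes was not the same in the 2 populations. In ISC/EBs it was *Fer2LCH*, *Fer1HCH*, *MtnA*, *MtnD*, *Ctr1B*, *ATP7*, *Ctr1A*, *MtnC*, *Mvl* and *MtnB*, with the widest gaps after *Ctr1A* (0.83) and *MtnD* (0.81). In ECs *Fer2LCH* was followed by *MtnC*, *Ctr1B* and *Fer1HCH* at steps of 0.05, 0.03 and 0.11, and *MtnA* came next. The SD over the fragments of each of the genes before *MtnA* was between 0.51 and 1.27. This SD describes Pol II along a gene and is no error of its mean. Without a spread between samples, the order at such small steps is not settled. In the genes with at least 6 fragments, the outline of Pol II along the gene was much alike in both populations. The correlation over fragments of ISC/EB and EC values was 0.996 in *MtnA* (6 fragments), 0.92 in *ATP7* (39 fragments), 0.90 in *Ctr1A* (28), 0.91 in *Mvl* (16), 0.91 in *Ctr1B* (10), 0.99 in *Fer1HCH* (10) and 0.83 in *Fer2LCH* (7), and it was 0.67 over all fragments of the genome. These are descriptions, since neighboring fragments are not independent and the same fragment has the same length and base composition in both tracks.

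Peaks of Sox21a, a transcription factor of ISC/EBs, overlapped most of the 10 genes. At least 1 deposited peak overlapped 8 of 10 gene bodies, against 17.4% of all genes. The ferritin genes share a peak, so 7 distinct peaks were involved. Only the peak of *ATP7* overlapped no other gene. A peak over several genes does not tell which of them it belongs to. The Sox21a mean reached 1 in 6 of 10 genes, against 14.1% of all genes, and the median was 1.08 for the 10 genes and 0.10 for all genes. Peaks were more common on genes with Pol II in ISC/EBs, being found on 42% of the genes with an ISC/EB mean of at least 1. For genes with a mean of at least 1 in both populations the share was 46.2%. Over all genes the Sox21a mean had a correlation of 0.82 with Pol II in ISC/EBs and of 0.59 with Pol II in ECs. How far the count of 8 follows from the Pol II levels of these genes was not tested.

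The highest of these peaks was in *ATP7*. It spans 11856562 to 11860816 on chromosome X, lies wholly inside the gene and has a score of 2.98, above 98.8% of the 2769 peaks. The fragment with the Sox21a maximum, at 3.0, had Pol II values of 3.05 in ISC/EBs and 3.41 in ECs. The Sox21a mean over the whole gene was 0.92, and the median over its fragments was 0.04.

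The peak at the ferritin pair had the next highest score, 2.65. It runs from 30386390 to 30390783 on 3R and covers all of *Fer2LCH* and 68.6% of *Fer1HCH*. *Fer2LCH* had a Sox21a mean of 2.36 and *Fer1HCH* of 1.92. In *Fer2LCH* Sox21a and Pol II did not share an outline. The correlation over its 7 fragments was 0.15 with Pol II in ISC/EBs, compared with 0.77 in *Fer1HCH* and 0.90 in *ATP7*. The Sox21a maximum of *Fer2LCH* (2.81) was on the fragment next to those with the most Pol II.

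*Ctr1A* had a peak with a score of 2.42 from 6661086 to 6663569, at the end of the gene where Pol II was also highest. This peak also overlaps *CG3224*. *MtnD* lay wholly inside a peak of 2120 bp with a score of 2.24, most of which is in *Stat92E*. The peaks of *MtnA* (1.73) and *Ctr1B* (1.64) scored below the median of all peaks (2.21). They covered 80.5% of *MtnA* and 48.8% of *Ctr1B*. The peak of *MtnA* also overlaps *CG12947* and asRNA:CR31514, and that of *Ctr1B* overlaps lncRNA:CR45215. The peak at *Mvl* (1.94) touches the gene by 16 bp and also overlaps *Cortactin*. The Sox21a mean of *Mvl* was 0.02. With at least 50% of the gene body required inside peaks, 4 genes remained, *MtnA*, *MtnD*, *Fer1HCH* and *Fer2LCH* (5.85% of all genes).

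*MtnB* and *MtnC* had no peak, and the nearest peaks were 30994 and 40632 bp away. *MtnC* nevertheless had a Sox21a mean of 1.02 in ISC/EBs, with 0.47, 1.07, 1.22 and 1.07 over its 4 fragments. The same fragments had at most 0.49 for Pol II in ISC/EBs and up to 3.13 for Pol II in ECs. The Sox21a values of the next 2 fragments outside the gene were 1.07 and 0.75, and they returned to 0.07 in the fragment where the EC signal ended at 0.14. At this gene the profile of Sox21a, measured in ISC/EBs, was thus high over the same fragments as Pol II in ECs, where Pol II in ISC/EBs was low. *MtnB* had a Sox21a value of 0.00 on its single long fragment.

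Other genes of metal handling were read from lists of related genes. Of 13 other copper genes found in the table, 9 had a mean of at least 1 in ISC/EBs (29.4% of all genes) and 7 in ECs (18.9%). By at least 1, 1 was higher in ISC/EBs (9.87% of all genes) and none was higher in ECs (2.67%). Their median difference was -0.06. The ends of the list were *Scox* (2.97 in ISC/EBs and 1.75 in ECs) and *Cox17* (1.77 and 0.77), which serve copper delivery to cytochrome c oxidase, and, in the other direction, the multicopper oxidase gene *Mco3* (-0.43 and 0.53) and *CG6908* (1.69 and 2.39). *MTF-1*, the regulator of the metallothionein genes, had 1.18 in ISC/EBs and 1.47 in ECs. The copper chaperone genes *Atox1* and *Ccs* had 1.78 and 1.68 in ISC/EBs and 2.06 and 2.28 in ECs. *Ctr1C*, a further importer gene, was at -0.09 in ISC/EBs and -0.14 in ECs. Sox21a peaks were found on 2 of these 13 genes, against 17.4% of all genes.

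Of 21 other iron genes, 14 reached 1 in ISC/EBs (29.4% of all genes) and 12 in ECs (18.9%). In each population 1 gene was higher by at least 1 (9.87% of all genes in ISC/EBs, 2.67% in ECs). The median difference was -0.03. *Fer3HCH*, which encodes a mitochondrial ferritin, had 0.55 in ISC/EBs and 1.79 in ECs, a difference of -1.25 that is unlike those of *Fer1HCH* and *Fer2LCH*. At the same end was the transferrin gene *Tsf1* (-0.16 and 0.46). At the other end were the ferredoxin gene *Fdx1* (3.03 and 1.48) and *Tsf2* (1.29 and 0.38). Sox21a peaks were found on 4 of the 21 iron genes, against 17.4% of all genes. Of 17 zinc transporter genes, 9 reached 1 in ISC/EBs and 12 in ECs, to be read against the same shares of all genes. None was higher in ISC/EBs by at least 1. In ECs 1 was, *Zip89B* (-0.20 and 1.41), followed by *Zip71B* (0.32 and 1.22). Their highest differences were those of *Zip88E* (1.77 and 1.20) and *ZnT49B* (0.56 and 0.15). The median difference was -0.05, and 9 of the 17 genes had a Sox21a peak (17.4% of all genes).

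**Figure D5:**
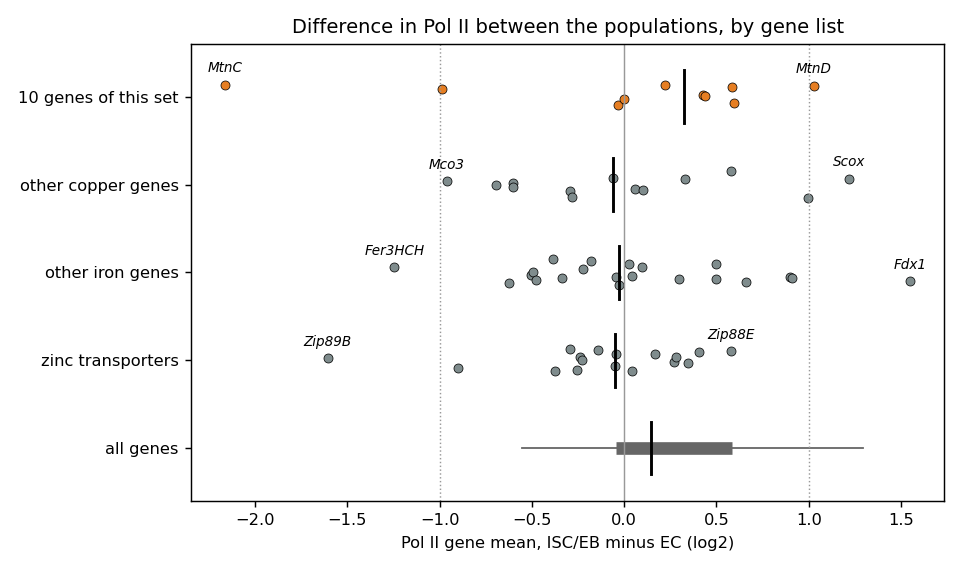
Difference in mean Pol II occupancy, ISC/EB minus EC (log2), for the 10 genes, the other copper genes, the other iron genes and the zinc transporter genes. Points are genes, vertical black bars are medians, and for all genes the thick bar spans the quartiles and the thin line runs from percentile 5 to percentile 95. *MtnC* lies at -2.16, left of the points of all 3 other lists, and the dotted lines mark differences of -1 and 1.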

How the data were processed

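Targeted DamID libraries of 14 samples were reduced by the authors to 3 deposited tracks, log2 ratios of each fusion to Dam alone on 383654 GATC fragments, averaged over samples, and to a deposited list of 2769 Sox21a peaks (FDR below 0.01) each with a log2 score. Aligner, library normalization, peak caller and build: not given in the sources used here. Fragments reached past the last gene of every chromosome of the Release 6 table, whose coordinates were used. That table has no strand or exons, and no DNA or protein sequences were used here. No column of values per sample was used, so samples were not tested.

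The 10 genes and the lists were chosen with earlier results of these data known. Named genes are the 10, the 2 genes at each end of a list, genes that share a fragment with one of the 10, and markers. *MtnE*, *MTF-1*, *Atox1*, *Ccs*, *Ctr1C*, *Or92a* and the hemocyte and copper cell markers were named after their values were seen. *CG12947*, asRNA:CR31514 and *Cortactin* were added later, for their position only. Of the lists, 2 of 15 copper, 2 of 23 iron and 1 of 18 zinc entries had no match. Dl was matched as *Delta*. *Zip99C* is in both the iron and the zinc list. A peak was assigned to a gene at an overlap of 1 bp. Gene means equaled a direct base-by-base computation at 200 of 200 genes. On simulated data 200 of 200 planted shifts were recovered. Every fragment of a gene was shifted alike, so this recovery checks the arithmetic only. The study's FDR for genes was not rebuilt. Calculations ran in Python 3.11.15 with pandas 2.3.3, numpy 2.4.6 and scipy 1.17.1, and plots in matplotlib 3.10.9.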

Additional observations from a re-analysis of the deposited data

How the results depend on the processing

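Counts of the 10 genes were recomputed with other weights, fragments, gene spans, levels and scalings of the tracks. The count of genes at 1 or more in ISC/EBs was 7 and became 4 at a level of 1.5 (18.4% of all genes). It was 5 with unweighted means (26.8%) and with medians over fragments (23.1%), and 6 after quantile normalization (23.7%). Without shared fragments it was 5 of the 9 genes with a value. As unweighted means, *Ctr1A* (0.85) and *ATP7* (0.95) fell under 1 in ISC/EBs. The count of genes higher in ISC/EBs, 1 (*MtnD*), became 0 with fragments wholly inside the gene (9.02% of all genes), with the gene extended by 500 bp (9.77%), at a level of 1.5 (3.19%), after quantile normalization (3.61%), with both Pol II tracks on one SD (5.08%) and without shared fragments, and 3 at a level of 0.5 (29.2% of all genes). *MtnD* had no value in the settings that leave out its only fragment. The count of genes higher in ECs, 1, became 2 with fragments wholly inside the gene (3.2% of all genes), at a level of 0.5 (5.38%), after quantile normalization (4.83%) and with both tracks on one SD (4.09%), the second gene being *Ctr1B*. The count with a Sox21a peak, 8, became 4 when 50% of the gene body had to lie in peaks (5.85% of all genes). The counts in ECs and by Sox21a mean stayed within 1.5 times their value. Leaving out shared fragments or fragments longer than 2 kb was chosen after seeing the data. Of 284 values of single genes under other settings, 263 moved by less than 0.5 (log2), and no value of at least 1 in size changed sign. Some of these values could not move. *MtnB* and *MtnD* have a single fragment, and only *MtnB* and *Mvl* have fragments longer than 2 kb. The tally therefore overstates how stable the values were. No paired analysis was possible because each track is an average over samples, and for the same reason no replicate could be left out.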

Other observations

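Past the higher-coordinate end of *Fer2LCH*, where the gene table lists no other gene within 3 kb, Pol II was higher in ECs over the fragments from 3301 to 5561 bp from the lower-coordinate end of the gene. The fragment from 3456 to 3714 bp had 1.01 in ISC/EBs, against 2.64 in ECs. That from 4500 to 5381 bp had 0.57 in ISC/EBs, against 1.79 in ECs. Farther out the order was the other way, with 1.86 in ISC/EBs, against 0.59 in ECs, from 5599 to 5950 bp. Between the gene and 3301 bp the 2 populations were close, for example 0.43 in ISC/EBs, against 0.37 in ECs, from 3214 to 3301 bp. Beyond *MtnB*, a fragment 2644 to 3251 bp from its lower-coordinate end had 1.43 in ISC/EBs, against 0.07 in ECs, with a Sox21a value of 1.21. Part of that fragment lies in another gene, *Or92a*, which runs from 1686 to 3084 bp on the same scale.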
